A study of Mus musculus with 11 samples.

Results

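The genes described here mark the endothelial cells of the liver. They are 34 genes chosen by name: 15 that mark the sinusoidal endothelium and 19 expressed by blood vessel endothelium in general. All probe sets carrying 1 of these symbols in the platform annotation were read. A probe set was present for 33 of the 34 genes, Rspo3 being the exception, and 31 of these were bright enough to be tested, among 7924 genes tested of 12393 with a probe set of their own.

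The study examined what a fat-rich diet, and muscle growth driven by Akt1, do to liver transcripts. Whole-liver RNA from 11 male mice of a mixed background was measured on oligonucleotide arrays, with 1 array per mouse. Wild-type mice were fed a normal diet (n = 3) or a high-fat diet (n = 4), and the mice of the third group, which also ate the high-fat diet, were Akt1 double transgenic (n = 4). Mice of all 3 groups were given doxycycline for 3 weeks, so no group shows the liver without this drug. The labels record muscle hypertrophy in the double transgenic mice alone and give no ages. They do not name the promoter. In its published description this model switches on an active form of Akt1 in skeletal muscle, under a muscle creatine kinase promoter, when doxycycline is given. The design has no double transgenic mice on a normal diet, so the effect of the transgene was measured at the high-fat diet alone. Muscle RNA was not analysed here, and liver Akt1 signal does not check a muscle transgene.

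Liver sinusoids are lined by flat endothelial cells that are perforated by open pores and rest on little basement membrane. These cells clear waste molecules, denatured proteins and immune complexes from the blood through scavenger and Fc receptors, and they sit beside Kupffer cells, the macrophages of the sinusoid. They also send signals to hepatocytes: BMP2 and BMP6 drive hepcidin and so iron balance, and WNT2, WNT9B and RSPO3 maintain the gene programme of hepatocytes around the central vein. General vascular genes encode growth factor receptors, junction proteins and transcription factors that are shared with the endothelium of portal and central veins, arteries and other organs. In such whole-tissue RNA, fewer endothelial cells and less RNA per endothelial cell cannot be told apart.

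Values are MAS5 signals, a linear brightness per probe set scaled so that each array has the same trimmed mean (500.251 to 500.285). Signal depends on the probes, so a gene is compared with itself across mice and never with another gene, and the number of arrays limits the precision. Double transgenic arrays 3 and 4 stood apart from the other 9 arrays, with top signals of 42426 and 43273 against 27780 to 35450. The poly-A control transcripts averaged 113 on double transgenic array 3 (286 to 463 on the other 10 arrays), and its Gapdh 3'/5' ratio was 0.823 (0.669 to 0.768 elsewhere). Values without these arrays are given beside the calls, the list medians they move and some of the single genes. Wild-type high-fat arrays 3 and 4, which carry the same replicate numbers, were kept in those fits.

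The differences between groups in endothelial genes were small. In wild-type mice the high-fat diet went with lower mean log2 signal for 27 of the 31 tested genes, beside 3878 of all 7924 genes. All 13 sinusoidal genes were among the 27 on their tested probe set. A second Dnase1l3 probe set differed by 0.09, and a Clec4g probe set too dim to test by 1.34. Each tested difference was small. On the same diet, 24 of the 31 genes had a higher mean in double transgenic than in wild-type mice, beside 3975 of all 7924 genes. The genes were read in the same few livers, so these counts are not independent evidence. With the same arrays, double transgenic mice on the high-fat diet and wild-type mice on the normal diet were nearly level, with 16 genes above 0 and 15 below. A single gene passed the test in any comparison: Bmp2, the BMP ligand of the sinusoid, fell 1.51-fold in double transgenic mice on the high-fat diet relative to wild-type mice on the normal diet. This call lay near the threshold and held in 9 of 22 alternative analyses.

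Differences were tested with limma over all 7924 genes at a Benjamini-Hochberg adjusted p under 0.05. For diet in wild-type mice, 0 of 31 endothelial genes passed, where 0% of all genes did. At an unadjusted p under 0.05, 2 of the 31 were lower and 0 higher, beside 7.02% of all genes in either direction. Every high-fat array lay below every normal-diet array for 2 genes (Stab1 and Ehd3), where 3.33% of all genes did so, and above for 0, where 4.58% did. The median log2 difference was -0.12 over the endothelial genes, -0.20 over the sinusoidal and -0.11 over the vascular genes, against 0.0067 over all genes, of which 3878 of 7924 lay below 0.

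For double transgenic against wild-type mice on the high-fat diet, 0 of 31 passed limma's adjusted threshold, where 0.366% of all genes did. At an unadjusted p under 0.05, 4 were higher (Gpr182, Clec4g, Ehd3 and Egfl7) and 2 lower (Bmp2 and Cdh5), beside 13.7% of all genes in either direction. Every double transgenic array lay below every wild-type high-fat array for Bmp2 and Cdh5, where 4.09% of all genes did so, and above for 0 genes, where 4.32% did. The median log2 difference was 0.15 over the 31 genes, 0.19 over the 13 sinusoidal (11 above 0) and 0.08 over the 18 vascular genes (13 above 0). Over all genes it was 0.0010, and 3975 of 7924 lay above 0. Without double transgenic arrays 3 and 4 all 3 medians were higher: 0.27 over the 31 genes, 0.37 over the sinusoidal and 0.22 over the vascular genes. This fit kept wild-type high-fat arrays 3 and 4, which were also the lower of their group over the 31 genes. It therefore does not show a larger difference in the remaining mice.

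For double transgenic mice on the high-fat diet against wild-type mice on the normal diet, 1 of 31 passed, where 2.08% of all genes did. At an unadjusted p under 0.05, 1 was higher (Gpr182) and 1 lower (Bmp2), beside 18.3% of all genes. Arrays were separate in the lower direction for Bmp2 alone among the 31, where 7.1% of all genes were, and in the higher direction for 0, where 8.46% were. The median was 0.010 over the 31 genes, -0.03 over the sinusoidal and 0.02 over the vascular genes. Over all genes it was 0.0041, and 4010 of 7924 lay above 0. The 3 comparisons share arrays. The 4 wild-type high-fat arrays enter the diet and the transgene comparison with opposite signs, so their values are given side by side and not as independent evidence.

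**Figure D1:**
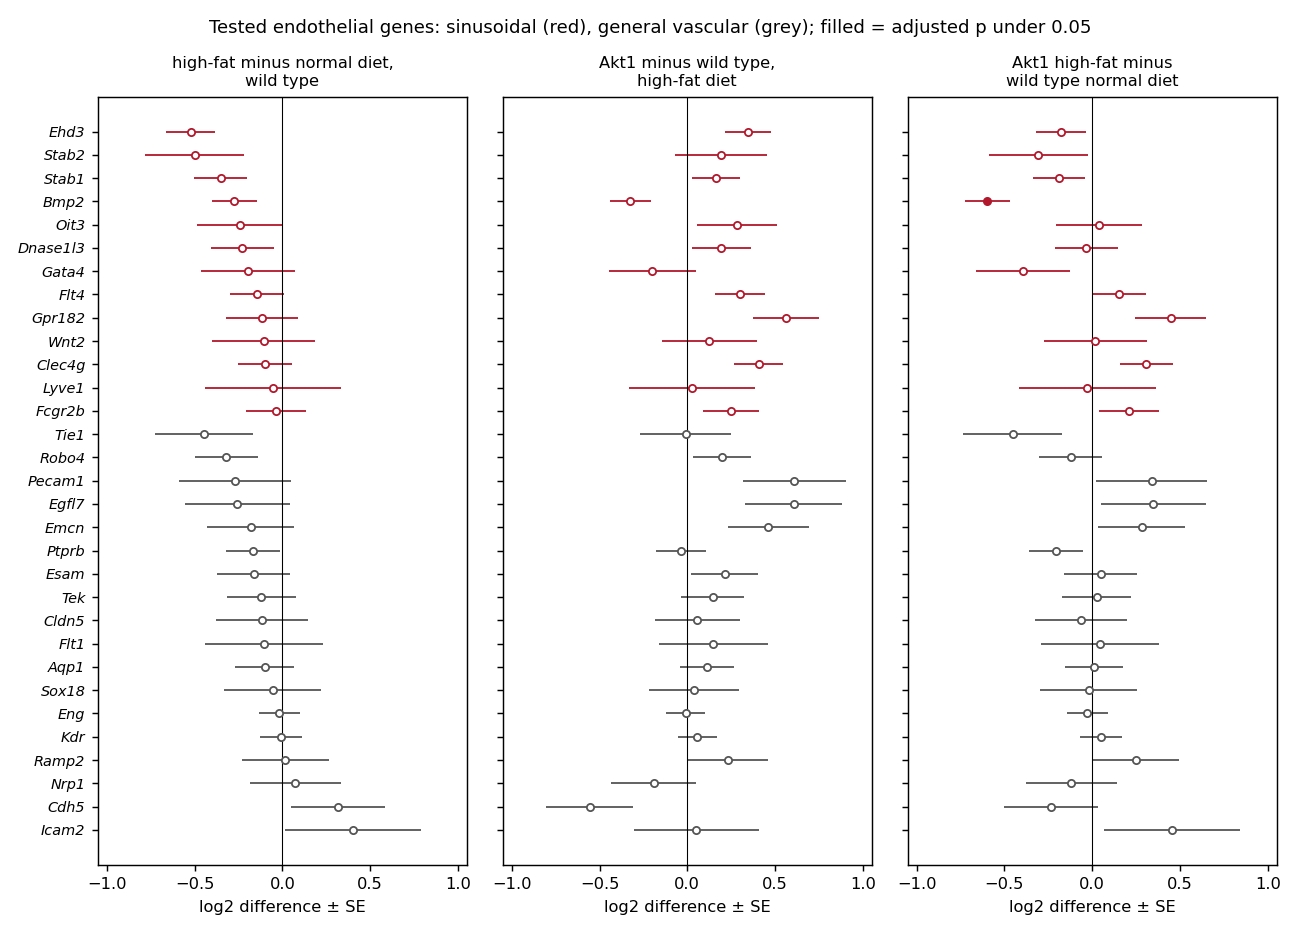
Log2 difference (x axis, with limma's standard error as bars) of each of the 31 tested genes (y axis) in the 3 comparisons, sinusoidal genes in red and general vascular genes in grey, with filled points for an adjusted p under 0.05. Most points lie left of 0 for diet and right of 0 for the transgene, and Bmp2 at -0.60 in the right-hand panel is the only filled point.

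Among the sinusoidal surface receptors, Stab1 and Stab2 encode the scavenger receptors stabilin-1 and stabilin-2, which take up modified proteins, heparin and hyaluronan. Clec4g encodes LSECtin, a C-type lectin. RefSeq promoter windows were at hand for 18 of the 34 genes, 7 of them sinusoidal and 11 vascular, and not for Gpr182 or Bmp2. The 250 bases before the start of Stab1 (chr14:31168642-31168891), Stab2 (chr10:87007943-87008192) and Clec4g (chr8:3720652-3720901) are shown as surface receptors of the sinusoid, with those of Kdr (chr5:75978456-75978705), the main VEGF receptor, as a general vascular gene beside them. Coordinates are in GRCm38.p6, and all of these genes lie on the minus strand. Capitals mark every match, on either strand, to motifs of factor families known from endothelial cells. The ETS cores searched were CCGGAA and the related letters CAGGAA. For GATA factors the motif searched was AGATAA. For MAF factors a core of their recognition element was searched, TGCTGA.
Stab1: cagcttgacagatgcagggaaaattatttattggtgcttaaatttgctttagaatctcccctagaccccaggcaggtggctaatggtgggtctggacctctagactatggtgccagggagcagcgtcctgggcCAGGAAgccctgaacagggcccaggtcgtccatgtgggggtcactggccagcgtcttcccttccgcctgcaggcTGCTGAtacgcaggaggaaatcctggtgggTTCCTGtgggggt
Stab2: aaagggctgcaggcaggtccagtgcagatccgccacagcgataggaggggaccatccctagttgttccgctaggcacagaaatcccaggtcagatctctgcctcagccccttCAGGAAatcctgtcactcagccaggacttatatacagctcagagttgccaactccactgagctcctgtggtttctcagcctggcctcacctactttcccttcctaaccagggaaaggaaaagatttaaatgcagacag
Clec4g: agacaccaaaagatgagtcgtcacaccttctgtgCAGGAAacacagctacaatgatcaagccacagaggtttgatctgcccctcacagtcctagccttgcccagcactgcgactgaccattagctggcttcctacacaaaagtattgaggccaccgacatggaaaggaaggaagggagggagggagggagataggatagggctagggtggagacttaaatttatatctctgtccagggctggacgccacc
Kdr: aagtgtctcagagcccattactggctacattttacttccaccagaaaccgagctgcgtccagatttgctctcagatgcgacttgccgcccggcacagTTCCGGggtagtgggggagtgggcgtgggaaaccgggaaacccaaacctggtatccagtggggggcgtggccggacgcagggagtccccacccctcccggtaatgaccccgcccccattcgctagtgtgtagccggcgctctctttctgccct
The 3 sinusoidal stretches each hold CAGGAA or its complement, Stab1 also holds the MAF element, and Kdr holds the complement of CCGGAA. Over the full windows of 300 bases, an ETS core was found in 57.1% of 7 sinusoidal windows and 61.5% of 13 vascular windows, against 41.4% of all 32851 windows. The GATA motif was in 0% and 7.69%, against 11.2% of all, and the MAF element in 14.3% and 23.1%, against 19.5%. A match is a description of the letters and not a bound site.

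Stab1 signal was 341.3, 280.2 and 288.7 in the wild-type mice on the normal diet, 216.3, 278.1, 238.2 and 219.6 in those on the high-fat diet, and 269.8, 317.3, 246.2 and 234.7 in the double transgenic mice. All 4 wild-type high-fat livers lay below all 3 normal-diet livers, by a narrow margin, and the double transgenic livers overlapped both. The diet difference was -0.35 ± 0.15 (log2, SE; limma adjusted p = 0.688), and the transgene difference 0.16 ± 0.14 (adjusted p = 0.639). Neither passed the test.

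Stab2 signal was 986.0, 479.8 and 1066.9 on the normal diet, 604.1, 596.4, 654.2 and 426.5 in wild-type mice on the high-fat diet, and 799.5, 572.2, 805.4 and 465.0 in double transgenic mice. Normal-diet mouse 2 was far below its 2 group mates and within the range of the high-fat livers, so all 3 groups overlapped. The diet difference was -0.50 ± 0.28 (limma adjusted p = 0.797), and it ranged from -0.29 without normal-diet array 3 to -0.87 without normal-diet array 2. The transgene difference was 0.19 ± 0.26 (adjusted p = 0.783).

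Clec4g signal was 1906.8, 1464.1 and 1871.0 on the normal diet, 1837.5, 1749.5, 1463.5 and 1469.2 in wild-type mice on the high-fat diet, and 2381.3, 2341.4, 1658.5 and 2306.7 in double transgenic mice. Of the double transgenic livers, 3 lay above all 7 wild-type livers, and the fourth, on array 3, lay among them. The transgene difference was 0.41 ± 0.14 (limma adjusted p = 0.232), or 0.53 without double transgenic array 3, and the diet difference -0.10 ± 0.15 (adjusted p = 0.942). Another Clec4g probe set was too dim to test, with signals of 4.2 to 56.3. It differed by 1.34 for diet and 0.29 for the transgene, with overlapping groups.

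Gpr182 encodes an atypical chemokine receptor of sinusoidal and lymphatic endothelium. Its signal was 261.8, 314.8 and 292.7 on the normal diet, 266.0, 330.5, 242.3 and 237.3 in wild-type mice on the high-fat diet, and 412.7, 539.0, 393.1 and 275.6 in double transgenic mice. Again 3 double transgenic livers were above all wild-type livers, here with mouse 4 among the wild-type values. The transgene difference was 0.56 ± 0.19 (limma adjusted p = 0.217), a mean of 405 ± 108 (SD, n = 4) against 269 ± 42.9 (n = 4). Against the normal diet it was 0.45 ± 0.20 (adjusted p = 0.269). Neither passed the test. Without double transgenic arrays 3 and 4 the differences were 0.82 and 0.71, which also did not pass.

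Fcgr2b encodes the inhibitory Fc receptor through which sinusoidal cells remove small immune complexes. Its mean signal was 1308 ± 99.1 (SD, n = 3) on the normal diet, 1277 ± 151 (n = 4) in wild-type mice on the high-fat diet and 1542 ± 352 (n = 4) in double transgenic mice, with overlapping groups and a transgene difference of 0.25 ± 0.16 (limma adjusted p = 0.520). The other Fcgr2b probe sets gave transgene differences of 0.07, -0.14 and 0.29, in part opposite in direction. Lyve1, a hyaluronan receptor of sinusoidal and lymphatic endothelium, was dim and variable, at 94.0 ± 23.0, 91.9 ± 28.9 and 100 ± 51.1 in the same order. Its differences were -0.05 for diet, 0.03 for the transgene and -0.03 against the normal diet, with standard errors of 0.36 to 0.39.

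Ehd3, a membrane trafficking protein and a marker of liver sinusoidal endothelium, had the smallest p of the 31 genes for diet. Its signal was 719.9, 832.9 and 807.7 on the normal diet, 643.1, 583.4, 504.0 and 471.0 in wild-type mice on the high-fat diet, and 815.6, 729.4, 590.9 and 663.6 in double transgenic mice. Every wild-type high-fat liver lay below every normal-diet liver, and the double transgenic livers spanned the gap between them. The diet difference was -0.52 ± 0.14, a 1.44-fold lower mean, with an unadjusted p of 0.00308 that became 0.498 after limma's Benjamini-Hochberg adjustment. The transgene difference was 0.35 ± 0.13 (adjusted p = 0.269). A second Ehd3 probe set also had a lower mean on the high-fat diet, with a difference of -0.22 and with overlapping groups.

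Among the remaining sinusoidal surface and secreted proteins the groups overlapped throughout. Flt4, which encodes the VEGF-C receptor VEGFR3, had mean signals of 456 ± 81.1, 409 ± 27.2 and 507 ± 73.6 in the normal-diet, wild-type high-fat and double transgenic groups, with a transgene difference of 0.30 ± 0.14 (limma adjusted p = 0.372). Oit3, a liver-restricted secreted protein found in sinusoidal endothelium, was at 330 ± 70.4, 278 ± 42.9 and 349 ± 115. Dnase1l3, a secreted nuclease that digests DNA on particles, was at 479 ± 106, 402 ± 14.3 and 468 ± 97.2. For the tested probe set of both genes each difference was at most 0.28 in size on the log2 scale and did not pass the test. A second Dnase1l3 probe set gave 0.09 for diet, 0.28 for the transgene and 0.37 for double transgenic mice against the normal diet, with overlapping groups. The Oit3 transgene difference was 0.69 when double transgenic arrays 3 and 4 were left out.

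**Figure D2:**
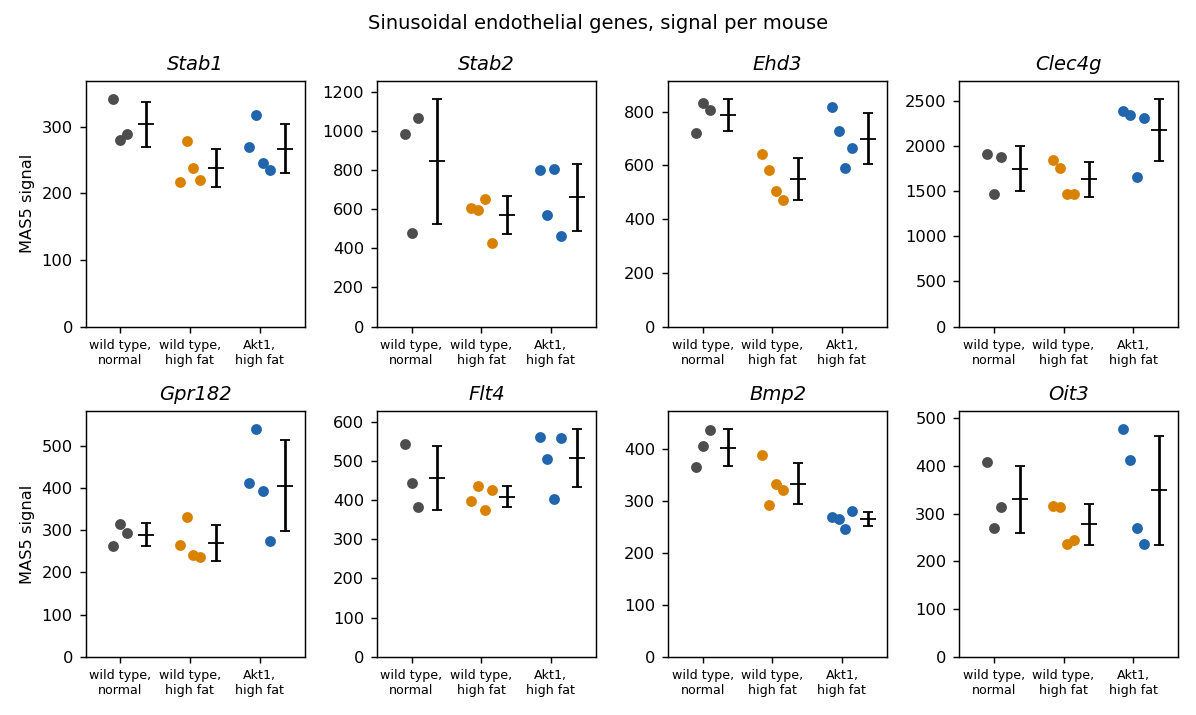
MAS5 signal (y axis, linear, from 0) of 8 sinusoidal genes in each mouse (points, replicate number from left to right), by group (x axis), with the group mean and SD as bars. The 4 wild-type high-fat values of Stab1 and Ehd3 lie below the normal-diet values, and the 4 Akt1 double transgenic values of Bmp2, 246.9 to 280.0, lie below all others.

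Bmp2 was lowest in the double transgenic livers. Its signal was 365.7, 405.6 and 436.2 on the normal diet, 388.1, 292.9, 333.1 and 320.3 in wild-type mice on the high-fat diet, and 268.7, 266.0, 246.9 and 280.0 in double transgenic mice. All 4 double transgenic livers lay below all 7 wild-type livers, and the 2 wild-type groups overlapped through high-fat mouse 1. Against the normal diet the difference was -0.60 ± 0.13, a 1.51-fold lower mean (limma adjusted p = 0.0388). On the high-fat diet alone the transgene difference was -0.32 ± 0.12 (adjusted p = 0.250), and the diet difference in wild-type mice was -0.27 ± 0.13 (adjusted p = 0.709), neither of which passed. The call against the normal diet lay close to the threshold. It was lost in 9 of the 11 fits that left out 1 array, the exceptions being those without wild-type high-fat array 1 or 2, with adjusted p values of 0.0559 to 0.130 in these 9 fits. Without double transgenic arrays 3 and 4 the difference was -0.59 (adjusted p = 0.160), and the direction was the same in all 22 alternatives. The gene had a single probe set.

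The other BMP ligand of the sinusoid and the known BMP and iron target genes were read beside Bmp2. Of 12 listed BMP and iron targets 8 were tested, and 0 passed limma's adjusted threshold in any comparison. At an unadjusted p under 0.05 there were 0 for diet, and 1 higher and 3 lower in each of the comparisons with double transgenic mice, beside 7.02%, 13.7% and 18.3% of all genes in the 3 comparisons. Their median log2 difference was -0.08 for diet, -0.61 for the transgene on the high-fat diet and -0.61 for double transgenic mice against the normal diet. Without double transgenic arrays 3 and 4, and with all wild-type arrays kept, the last 2 medians were -0.12 and -0.21. The list's average relative to the normal-diet mean was -0.72 and -0.91 on double transgenic arrays 3 and 4. Wild-type high-fat arrays 3 and 4 were also the lower of their group, at -0.27 and -0.46, against 0.15 and 0.25 on arrays 1 and 2. On double transgenic arrays 1 and 2 the list's average was -0.19 and -0.35, within the range of the wild-type arrays (-0.46 to 0.29).

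Smad7, an inhibitor in the BMP and TGF-beta pathways that BMP signalling induces, had signals of 195.1, 324.3 and 136.3, then 221.6, 244.0, 107.1 and 159.7, then 139.6, 78.4, 63.6 and 73.4 in the same group order. The double transgenic livers were mostly the lowest, with mouse 1 overlapping the wild-type values. The Smad7 difference was -1.04 ± 0.34 for the transgene (limma adjusted p = 0.210) and -1.28 ± 0.37 against the normal diet (adjusted p = 0.0990), or -0.74 and -0.97 without double transgenic arrays 3 and 4.

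Tfr2, the transferrin receptor of hepatocytes that takes part in iron sensing, differed in the other direction. All 4 double transgenic livers (9732.2 to 11790.0) were above all wild-type livers (7155.2 to 9393.3). Of all genes, 4.32% were separate in this direction for the transgene and 8.46% against the normal diet. The Tfr2 transgene difference was 0.36 ± 0.10 (limma adjusted p = 0.130). Slc40a1, the iron exporter ferroportin, differed by -0.72 ± 0.25 against the normal diet (adjusted p = 0.163), and was lowest on double transgenic arrays 3 and 4, at 2180.4 and 2872.6, without which its difference was -0.26. For diet the smallest p values of this list belonged to Hamp (-0.09, adjusted p = 0.930) and Tfr2 (-0.07, adjusted p = 0.941). Hamp, which encodes hepcidin, the hormone that lowers iron export, had mean signals of 21170 ± 1198, 20078 ± 2738 and 18831 ± 1221 in the normal-diet, wild-type high-fat and double transgenic groups, with overlapping groups in each comparison. Bmp6, Smad6, Id1, Id3 and Hamp2 are named after their values were seen. Bmp6, the main iron-responsive ligand of the sinusoid, had signals of 147.7, 111.0 and 125.7, then 105.1, 160.8, 109.2 and 82.4, then 90.6, 86.1, 42.7 and 81.6, lowest on double transgenic array 3, and differed by -0.82 ± 0.30 against the normal diet (adjusted p = 0.183), or by -0.53 without double transgenic arrays 3 and 4. Smad6, another inhibitor that BMP signalling induces, differed by -0.61 ± 0.22 for the transgene (adjusted p = 0.246), or by -0.58 without those arrays. The listed targets Id1, Id3 and Hamp2 differed by -0.23, -0.76 and -0.71 for the transgene, with overlapping groups. Without double transgenic arrays 3 and 4 these differences were 0.15, -0.10 and -0.35.

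**Figure D3:**
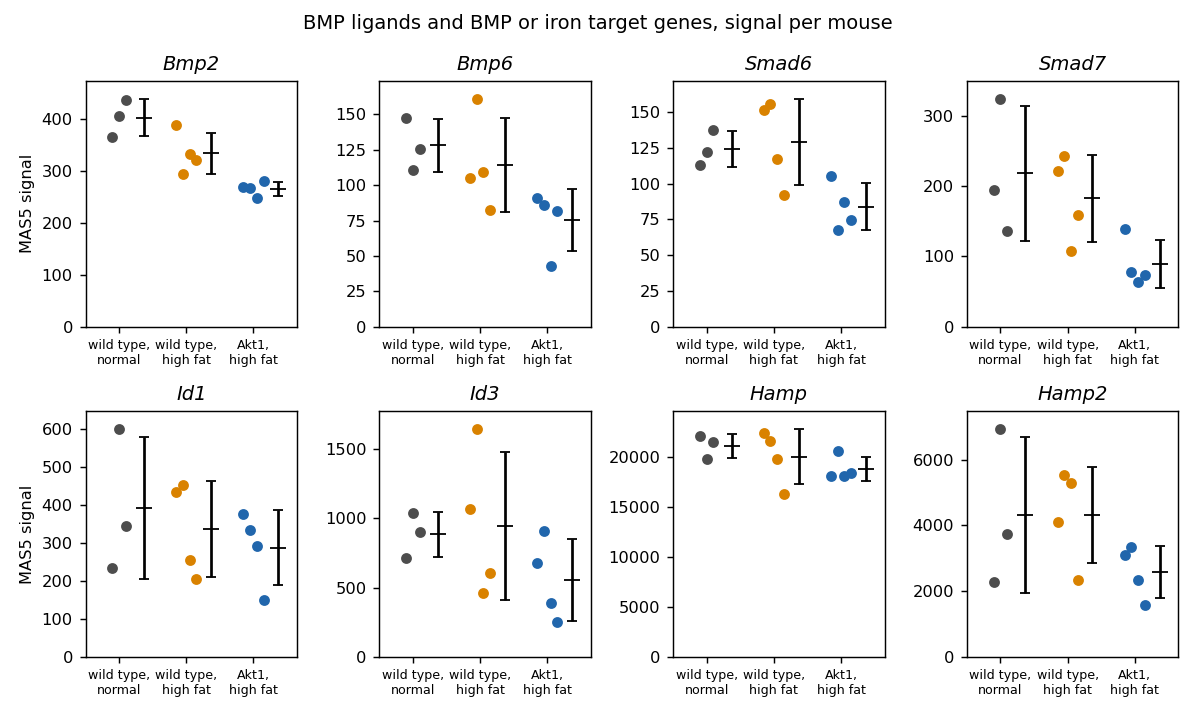
MAS5 signal (y axis, linear, from 0) of Bmp2, Bmp6 and 6 BMP or iron target genes in each mouse (points) by group (x axis), with the group mean and SD as bars. Double transgenic values of Bmp2 lie below all others, and those of Bmp6, Smad6 and Smad7 are mostly low. Those of Hamp, 18104.6 to 20651.5, overlap both wild-type groups, as do those of Id1, Id3 and Hamp2.

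Wnt2, a sinusoidal WNT ligand acting on pericentral hepatocytes, had mean signals of 115 ± 15.7, 112 ± 39.2 and 118 ± 24.8 in the normal-diet, wild-type high-fat and double transgenic groups, and its difference was at most 0.13 in size in any comparison. Rspo3, which strengthens WNT signalling, had no probe set. Of 15 listed pericentral WNT targets in hepatocytes 13 were tested, and 0 passed limma's adjusted threshold in any comparison. At an unadjusted p under 0.05 there were 1 higher and 1 lower for diet, 0 and 4 for the transgene, and 1 and 3 for double transgenic mice against the normal diet, beside 7.02%, 13.7% and 18.3% of all genes. Their median log2 difference was -0.02 for diet, -0.23 for the transgene and -0.25 against the normal diet. The last 2 medians were -0.27 and -0.31 when double transgenic arrays 3 and 4 were left out.

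The pericentral targets with the smallest p were, for the transgene, Rnf43 and Cyp1a2. Rnf43, a feedback inhibitor that removes WNT receptors, had signals of 184.9, 148.0, 189.6 and 241.8 in wild-type and 117.2, 74.5, 127.1 and 74.9 in double transgenic mice on the high-fat diet, with every double transgenic value below every wild-type one on that diet. The difference was -0.98 ± 0.25 (limma adjusted p = 0.112), where 4.09% of all genes were separate in this direction. The normal-diet values of Rnf43, 120.3 to 204.7, overlapped the double transgenic ones. Cyp1a2, a pericentral drug-metabolising cytochrome, differed by -0.59 ± 0.18 for the transgene (adjusted p = 0.197) and by -0.71 ± 0.20 against the normal diet (adjusted p = 0.0876). Tbx3, a transcription factor of pericentral hepatocytes, differed by -0.79 ± 0.25 against the normal diet (adjusted p = 0.120). For diet the values were 0.40 ± 0.14 for Gulo, an enzyme of ascorbate synthesis (adjusted p = 0.658), and -0.44 ± 0.18 for Slc1a2, a glutamate transporter (adjusted p = 0.674). None of these passed the test.

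Among the transcription factors of sinusoidal identity, Gata4, which is required for the sinusoidal type of endothelium, had mean signals of 194 ± 26.8, 172 ± 38.4 and 153 ± 50.9 in the normal-diet, wild-type high-fat and double transgenic groups. The groups overlapped, and its difference against the normal diet was -0.40 ± 0.27 (limma adjusted p = 0.465). Without double transgenic arrays 3 and 4 it was 0.03, so its direction rested on those arrays. Maf was below the brightness limit of a signal of 53.0, with single values from 2.2 to 56.3, and was not tested.

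Among the general vascular growth factor receptors, the differences of Kdr, Eng and Tek were small. Kdr, which encodes VEGFR2, had mean signals of 451 ± 26.2, 449 ± 20.2 and 469 ± 62.3 in the normal-diet, wild-type high-fat and double transgenic groups, and differences of -0.01 ± 0.12 for diet and 0.06 ± 0.11 for the transgene. Eng, the TGF-beta co-receptor endoglin, was as level, at 613 ± 23.0, 607 ± 59.9 and 603 ± 59.7, with differences of -0.02 ± 0.12 and -0.01 ± 0.11. Tek, which encodes the angiopoietin receptor TIE2, was at 142 ± 10.1, 131 ± 17.7 and 146 ± 28.9. The standard errors of Kdr and Eng are among the smallest of the 31 genes.

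Tie1, the orphan partner of TIE2, had signals of 135.8, 115.3 and 72.4 on the normal diet, 71.7, 98.9, 54.5 and 89.0 in wild-type mice on the high-fat diet, and 82.5, 68.1, 73.4 and 81.6 in double transgenic mice. Of the normal-diet livers, 2 lay above all others and 1 among them. The diet difference was -0.45 ± 0.28 (limma adjusted p = 0.804). Flt1, which encodes VEGFR1, was dim, at 71.1 ± 12.5, 68.8 ± 23.3 and 75.0 ± 22.3.

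Nrp1, the VEGF and semaphorin co-receptor neuropilin-1, was at 1330 ± 95.6, 1441 ± 433 and 1278 ± 413, with single values from 778.6 on double transgenic array 3 to 2063.6 on wild-type high-fat array 1. Its transgene difference was -0.19, and 0.20 without double transgenic arrays 3 and 4. The other Nrp1 probe sets gave transgene differences of -0.18 and -0.50 over all arrays, with overlapping groups. Ptprb, the phosphatase VE-PTP that restrains TIE2, was at 785 ± 74.6, 697 ± 25.6 and 692 ± 150. Robo4, a guidance receptor that stabilises vessels, was at 178 ± 20.8, 143 ± 21.7 and 164 ± 25.5, with a diet difference of -0.32 ± 0.18 (limma adjusted p = 0.797). Ramp2, the partner of the adrenomedullin receptor, was at 161 ± 45.0, 162 ± 37.1 and 190 ± 43.9. None of these genes passed the test in any comparison.

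Junction and surface proteins had differences in both directions. Cdh5, which encodes VE-cadherin, had signals of 236.6, 102.1 and 121.5 on the normal diet, 180.8, 188.3, 168.7 and 176.8 in wild-type mice on the high-fat diet, and 116.9, 144.3, 141.0 and 91.6 in double transgenic mice. On the high-fat diet every double transgenic liver lay below every wild-type liver, while the normal-diet livers spanned both groups. The transgene difference was -0.56 ± 0.25 (limma adjusted p = 0.350), and the diet difference 0.32 ± 0.27 (adjusted p = 0.878). The diet difference was 0.68 without normal-diet array 1 and 0.07 without normal-diet array 2.

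Pecam1, the adhesion molecule CD31, had signals of 129.5, 124.9 and 124.4 on the normal diet, 138.2, 151.6, 99.1 and 57.8 in wild-type mice on the high-fat diet, and 192.6, 205.1, 144.2 and 114.1 in double transgenic mice. Its double transgenic mean was thus the highest where that of Cdh5 was the lowest, with overlapping groups. The transgene difference was 0.61 ± 0.29 (limma adjusted p = 0.386). It was 0.32 without wild-type high-fat array 4. Without double transgenic arrays 3 and 4, but with the low wild-type high-fat array 4 kept, it was 0.93. Emcn, the sialomucin endomucin, had a transgene difference of 0.46 ± 0.23 (adjusted p = 0.405) from means of 78.8 ± 19.4 and 107 ± 16.1.

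The other junction genes overlapped between groups. Cldn5, a tight junction protein, was at 195 ± 71.3, 172 ± 27.1 and 179 ± 31.6, and Esam, an endothelial adhesion molecule, at 271 ± 80.5, 237 ± 29.1 and 277 ± 52.7. Icam2, a ligand of leukocyte integrins, was dim, at 64.1 ± 29.5, 82.0 ± 30.9 and 82.3 ± 17.7, and its differences carried standard errors of 0.36 to 0.39.

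Egfl7, a secreted protein of the vessel wall, had signals of 440.3, 192.4 and 211.7 on the normal diet, 202.3, 262.1, 182.7 and 238.1 in wild-type mice on the high-fat diet, and 430.0, 394.0, 213.5 and 341.4 in double transgenic mice. Its brightest probe set gave a transgene difference of 0.61 ± 0.28 (limma adjusted p = 0.364), but its 3 other probe sets gave 0.13, 0.05 and -0.06. The probe sets of this gene thus disagree in size and in part in direction. Over all endothelial genes, 13 second probe sets were bright enough to compare. Of these, 11 had the sign of the first for diet, 11 for the transgene and 6 for double transgenic mice against the normal diet, and 0 had the opposite sign with an unadjusted p under 0.05.

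Aqp1, the water channel of vessels and bile ducts, was at 1279 ± 206, 1192 ± 173 and 1294 ± 219. Sox18, a vascular transcription factor, was at 111 ± 5.64, 109 ± 21.3 and 116 ± 46.2, the last spread resting on double transgenic mouse 2 at 184.3. Vwf, which encodes von Willebrand factor and is scarce in normal sinusoids, was below the brightness limit with signals of 34.2 to 77.6 and was not tested.

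**Figure D4:**
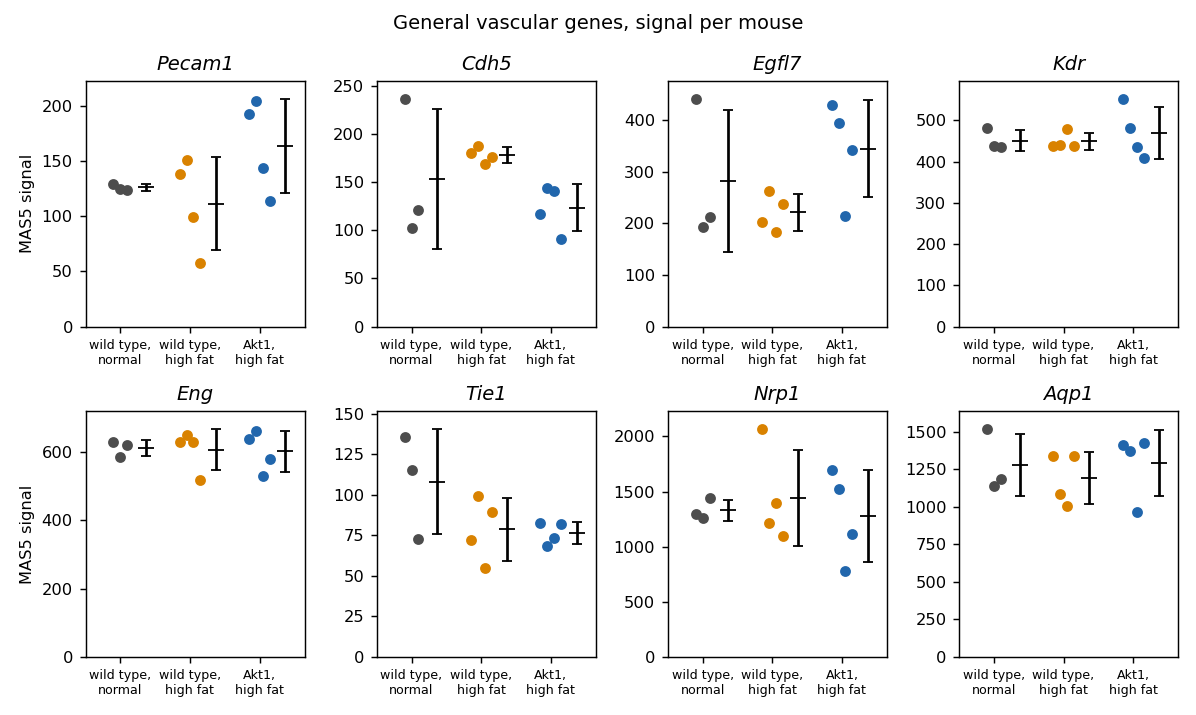
MAS5 signal (y axis, linear, from 0) of 8 general vascular genes in each mouse (points) by group (x axis), with the group mean and SD as bars. Kdr and Eng are level across the 3 groups, whereas in double transgenic mice Pecam1 has its highest mean (164) and Cdh5 its lowest (123).

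To set sinusoidal against general vascular genes within each liver, each gene's log2 signal was taken relative to its normal-diet mean and averaged over the list. The sinusoidal average was -0.13 to 0.09 in the normal-diet livers, -0.25 to -0.16 in the wild-type high-fat livers and -0.24 to 0.16 in the double transgenic livers. The wild-type high-fat livers thus lay below the normal-diet livers, narrowly, while the double transgenic livers spanned both. The vascular average was -0.13 to 0.17, -0.24 to 0.04 and -0.11 to 0.16, with all groups overlapping.

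The sinusoidal minus the vascular average was -0.08 to 0.07 on the normal diet, -0.23 to -0.01 in wild-type mice on the high-fat diet, and -0.13 to -0.005 in double transgenic mice. These ranges overlapped, so the gap between sinusoidal and vascular genes did not separate the groups. The average of the core sinusoidal genes Stab2, Clec4g and Gpr182 was -0.28 to 0.18, -0.47 to -0.07 and -0.14 to 0.33, also overlapping. Double transgenic mice 1 and 2 had the high endothelial averages of their group (0.13 and 0.16 over all 31 genes), and mice 3 and 4, whose arrays stood apart, the low ones (-0.16 and -0.12). In the wild-type high-fat group, whose arrays did not stand apart, mice 3 and 4 were also the lower (-0.24 and -0.19, against -0.09 and -0.04 in mice 1 and 2). No p is given for these averages, because the genes were chosen with earlier results known.

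**Figure D5:**
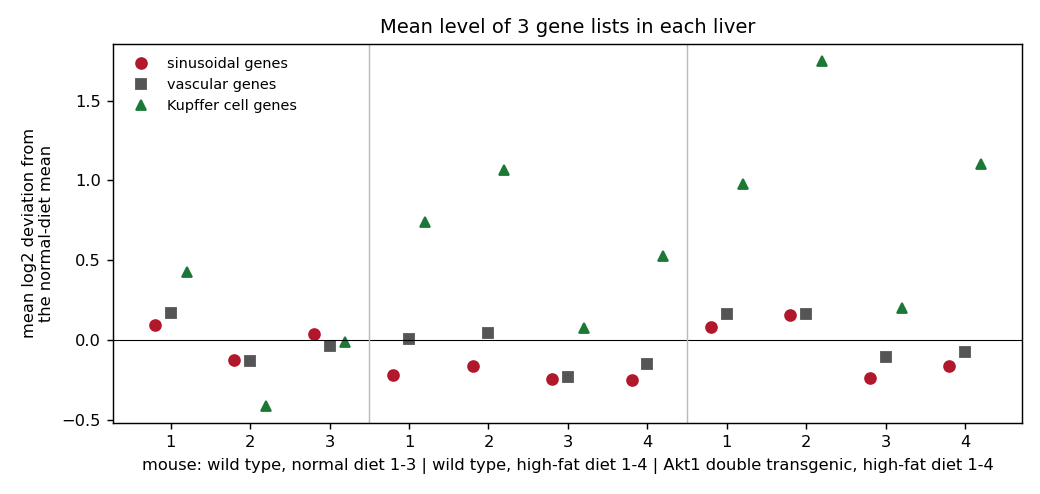
Mean log2 deviation from the normal-diet mean (y axis) of the sinusoidal, vascular and Kupffer cell lists in each of the 11 livers (x axis, by group and replicate number). The sinusoidal averages of the 4 wild-type high-fat livers lie between -0.25 and -0.16, and the Kupffer cell averages spread far more, up to 1.75 in double transgenic mouse 2.

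Markers of other liver cells were read beside the endothelial genes, since their RNA was in the same samples. Of 14 Kupffer cell markers 12 were tested, and their median log2 difference was 0.59 for diet, 0.55 for the transgene and 1.11 for double transgenic mice against the normal diet. Of the 12, 11 lay above 0 for diet, 10 for the transgene and 11 in the last comparison. Cd163 lay below 0 for diet (-0.39) and in the last comparison (-0.32). In that last comparison 2 of the 12 passed limma's adjusted threshold, where 2.08% of all genes did. Both were higher: Cd5l, a secreted macrophage protein (2.02 ± 0.46, adjusted p = 0.0456), and Folr2, a folate receptor of resident macrophages (1.53 ± 0.34, adjusted p = 0.0447). Without double transgenic arrays 3 and 4 their differences were 2.55 and 1.99, which did not pass (adjusted p = 0.0624 and 0.0507), and the list's medians were 0.82 for the transgene and 1.37 against the normal diet. The summed signal of the 12 markers was 3358 to 6365 on the normal diet, 4665 to 10109 in wild-type mice on the high-fat diet and 5638 to 15906 in double transgenic mice. The sum over the 13 sinusoidal genes was 6467 to 7938, 5881 to 6826 and 6371 to 8700, and that over the 18 vascular genes 5866 to 7163, 5731 to 6975 and 5082 to 7358.

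The 8 hepatocyte markers tested of 10 had medians of 0.09, 0.18 and 0.27 in the same 3 comparisons, and their average was highest on double transgenic arrays 3 and 4, at 0.46 and 0.42. Without these arrays the last 2 medians were -0.06 and 0.03. The 11 stellate cell markers tested of 14 had medians of 0.21, 0.04 and 0.07, the last 2 being -0.15 and 0.17 without double transgenic arrays 3 and 4. Of the lymphocyte and cholangiocyte markers 0 passed the brightness limit, and of the neutrophil and erythroid markers 1 each. The share of these cells in the endothelial values was not tested.

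Other genes of endothelial pathways (VEGF, angiopoietin, NOTCH, BMP, flow and adhesion genes) were read from a list of 56, of which 35 were tested and 0 passed limma's adjusted threshold in any comparison. At an unadjusted p under 0.05 there were 1 higher and 0 lower for diet, 2 and 6 for the transgene, and 6 and 6 for double transgenic mice against the normal diet, beside 7.02%, 13.7% and 18.3% of all genes. Smad6, Smad7, Id1 and Id3 stand in this list and among the BMP and iron targets, so both counts hold them. The median differences were 0.03, -0.07 and 0.02, and without double transgenic arrays 3 and 4 the last 2 were 0.12 and 0.12. For the transgene, Icam1, the leukocyte adhesion molecule induced in inflammation, had signals of 124.7, 168.1, 137.3 and 101.2 in wild-type and 181.3, 262.0, 269.7 and 198.4 in double transgenic mice on the high-fat diet. Every double transgenic value lay above every wild-type value on that diet, where 4.32% of all genes did so, and the difference was 0.78 ± 0.21 (limma adjusted p = 0.137). The normal-diet values of Icam1, 113.3 to 184.5, overlapped the double transgenic ones.

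S1pr1, the sphingosine 1-phosphate receptor that keeps vessels quiescent, differed in the other direction, at 736.8, 675.4, 643.1 and 644.2 in wild-type and 572.6, 548.0, 444.8 and 511.2 in double transgenic mice on the high-fat diet. These groups did not overlap (-0.38 ± 0.12, limma adjusted p = 0.209), where 4.09% of all genes were separate in this direction. The normal-diet values, 553.6 to 755.8, overlapped the double transgenic ones. For diet, Cd36, a fatty acid transporter that hepatocytes and macrophages also express, differed by 1.91 ± 0.60 (adjusted p = 0.606), with normal-diet values from 165.2 to 904.0 and wild-type high-fat values from 845.3 to 2647.0. Klf2, a flow-responsive transcription factor, differed by 0.75 ± 0.36 (adjusted p = 0.721). Against the normal diet, Ctsl, a lysosomal protease that many cells express, differed by 0.47 ± 0.13 in double transgenic mice (adjusted p = 0.0951), and the other gene of smallest p was Smad7, given above.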

How the data were processed

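RNA of whole liver was copied from poly-dT primers and labelled with biotin, per the labels' protocols. The deposited values are linear intensity values (signal) made by the authors with MAS5, per the submitters' processing notes. Its version is not given in the sources used here, and detection calls were not used here. MAS5 scales arrays 1 by 1, and none were rescaled. The 1386 values under 1 were set to 1 before log2, which can inflate differences of dim genes.

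Groups came from the sample titles. The array has 22690 probe sets, of which 20380 carry 1 symbol in the platform annotation, 691 several, 1555 none, and 64 are controls. By Entrez identifier 20351 were found in a RefSeq gene table, with 0 symbols to update. No build is named by that annotation, and coordinates are those of the RefSeq promoter table (GRCm38.p6). Only probe sets with 1 symbol and above the lowest 40% by mean log2 signal (53.0) were tested, the brightest for each gene. The endothelial genes had 53 probe sets: 31 tested, 13 second, 7 dim and 2 shared between genes (Ramp2 and Vps25).

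A single limma fit (limma 3.58.1, R 4.3.3; eBayes with an intensity trend) held all 11 arrays, two-sided, Benjamini-Hochberg adjusted over 7924 genes at 0.05. Errors of log2 differences are limma's standard errors. The code was tested on simulated data. Lists have counts and medians, without a list test. Every endothelial gene was described. From the other pathway lists, genes past the threshold or else the 2 of smallest p per comparison were named, and from cell type lists up to 3 markers. Bmp6, Smad6 and the genes drawn beside them fall outside that rule. Members and lists were chosen with earlier results of these data known.

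The alternatives changed the normalization (quantile), the scale (a pseudocount of 32), the brightness filter (none, or 60%), the choice of probe sets (all of them), the variance model (no trend, robust, or weights per array) and the arrays fitted. The last were only the groups compared, each array left out in turn, and double transgenic arrays 3 and 4 left out. For the other pathway and cell type lists this last alternative was added after seeing the data. The replicate number as a block was another.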

Additional observations from a re-analysis of the deposited data

Results flagged for a closer look

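In the 62 groups of 4 arrays examined (31 genes in both high-fat groups), 5 held a single mouse whose gap to its nearest group mate was large for the range of the group. A gap of this size is passed by chance in about 1 group of 20. Double transgenic array 3 held 2 of them: Clec4g at a signal of 1658.5, against 2306.7 to 2381.3 in the other double transgenic mice, and Aqp1 at 967.1, against 1368.2 to 1427.6. This is the array with the low poly-A spike signal of 113, and the part of that in these values was not tested. Sox18 was at 184.3 in double transgenic mouse 2, against 84.7 to 98.0 in the others. In wild-type mice on the high-fat diet, Kdr was at 479 in mouse 3, against 437.1 to 441.4, and Eng at 518.9 in mouse 4, against 629.4 to 651.7.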

How the results depend on the processing

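Over 22 alternatives, 0 endothelial genes passed for diet and 0 for the transgene on the high-fat diet. The fall of Bmp2 against the normal diet kept its direction in all 22 and passed in 9 (adjusted p of 0.0332 to 0.160). It did not pass, leaving 0 endothelial genes called, with no filter on dim probe sets (-0.60, limma adjusted p = 0.0590), with only the groups compared (-0.60, 0.0727), with the replicate block (-0.60, 0.0800) and without double transgenic arrays 3 and 4 (-0.59, 0.160). Leaving out each array in turn gave Bmp2 differences of -0.67 to -0.54 and a count of 0 to 1. The sinusoidal median for the transgene moved from 0.19 to 0.37 without double transgenic arrays 3 and 4, and the vascular median from 0.08 to 0.22. Wild-type high-fat arrays 3 and 4 were kept in that fit. Replicate numbers were not taken as pairs: same-numbered arrays had correlated deviations of -0.07 to 0.03 (diet), 0.08 to 0.29 (transgene, where 4 of 4 matched best with their own number) and -0.06 to 0.11. The replicate block changed no other call among the endothelial genes. The diet median of the sinusoidal genes ranged from -0.27 to -0.13 and that of the vascular genes from -0.17 to 0.02, so the latter changed sign. Of the 31 genes, 15 kept their sign in every alternative for diet, 19 for the transgene and 15 against the normal diet. Over all genes, calls ranged from 0 to 2 for diet (0 as reported), 0 to 64 for the transgene (29) and 23 to 240 against the normal diet (165). Without detection calls, signal over background was not judged, and dim genes (Lyve1, Flt1, Icam2) have the widest errors.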
